A study of Mus musculus with 10 samples.

Results

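The baseline transcriptome of melanoma endothelium was described from the 4 wild-type libraries among the 10 of the series, chosen by their titles. Each library came from CD31-positive cells of B16F10 tumours, taken with magnetic beads after cells carrying CD11b, a surface protein of myeloid cells, had been removed. B16F10 is a pigmented mouse melanoma line. The wild-type animals were adult mice whose strain label reads Cdh5-CreERt2, an inducible Cre recombinase under the promoter of an endothelial cadherin gene, so the label gives the Cre transgene to the wild-type group as well. The labels give no treatment, sex or tumour age. The tissue label names tumours and the source label names lungs beside them. The series text counts 4 wild-type mice. Whether animals were pooled is not given in the sources used here, so the spread between libraries may be biological or technical.

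Endothelial cells line blood and lymph vessels. They hold together through VE-cadherin and other junction proteins, take up growth signals through VEGF and Tie receptor kinases, and rest on a basement membrane of laminin and type IV collagen that they help to make. In tumours, sprouting is led by tip cells, which answer VEGF, release angiopoietin-2 and apelin, and restrain their neighbours through the Notch ligand Dll4. ETS, SOX and GATA family factors set the endothelial programme of transcription.

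Values are FPKM, which divides fragments by the length of the transcript and by all fragments mapped in the library, so levels can be compared between genes per unit of length. The files hold no read totals, which leaves the depth of each library unknown. Within a library the values are shares of a whole, and in such bulk samples fewer cells of a type and less RNA per cell cannot be told apart. No groups were compared and the levels are given without a test: with 4 libraries, a two-sided exact sign test cannot reach a p of 0.05.

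Of 28454 gene symbols, 11460 reached 1 FPKM in every wild-type library. By mean, 13256 symbols reached 1 FPKM, 6812 reached 10 FPKM and 805 reached 100 FPKM. The median over the symbols with a mean of at least 1 FPKM was 10.6 FPKM. The libraries were not equally alike: Spearman correlations across those symbols ran from 0.83, for replicates 1 and 3, to 0.97, for replicates 2 and 4. Genes are not independent replicates, so these are descriptions. Replicate 1 stood apart by its mitochondrially encoded transcripts, 14.5% of its summed FPKM against 1.73% to 3.07% in the others. Its small nucleolar and Cajal body RNAs together were low, at 0.978% against 2.77% to 6.20%. Both shares take in exact zeros, which can be failed estimates. Small nucleolar RNAs alone held 0.583% against 2.40% to 5.73%. Cajal body RNAs alone were not low there, at 0.395% against 0.364% to 0.465%. The gene mt-Co1 was at 15671 FPKM in replicate 1 and at 0 in the others. With no 0, mt-Nd1 had 3516, 1435, 1407 and 1330 FPKM in replicates 1 to 4 and mt-Cytb 4842, 1365, 1111 and 1107 FPKM. Of the small nucleolar or Cajal body RNAs, 44 were at 0 only in replicate 1 and at 10 FPKM or more in another library. Replicate 1 also held the most melanoma transcripts, and replicate 3 held by far the most macrophage transcripts, as given below. Shb, the gene inactivated in the rest of the series, had 5.44, 3.27, 2.78 and 3.24 FPKM in replicates 1 to 4.

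Genes of endothelial identity stood near the top of the transcriptome. Pecam1, which encodes the sorted CD31 protein (chr11:106654217-106750628, minus strand, GRCm38), had 569, 864, 745 and 858 FPKM in replicates 1 to 4. Its mean of 759 ± 138 FPKM (SD, n = 4) placed it at rank 90 of all symbols. Cdh5, the gene of VE-cadherin (chr8:104101625-104144511, plus strand), had 374, 429, 385 and 419 FPKM, with a mean of 402 ± 26.3 at rank 192. These were the most even values of the 4 defining markers Pecam1, Cdh5, Kdr and Egfl7. Kdr, the gene of VEGF receptor 2 (chr5:75932827-75978458, minus strand), had 296, 388, 250.3 and 435 FPKM, and replicate 4 was 1.74 times replicate 3. Egfl7, a protein secreted by endothelium (chr2:26580014-26593120, plus strand), had 582, 636, 462 and 679 FPKM at rank 125. Each of the 4 defining markers was thus among the 225 most abundant symbols, with its lowest value in replicate 1 or 3.

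A list of 36 pan-endothelial genes was measured in full. All 36 reached 1 FPKM in each library, 21 had a mean of at least 100 FPKM and 14 lay between 10 and 100 FPKM. Tal1, a transcription factor of early blood and vessel development, was the lowest at 8.73 FPKM. The median of the list was 146 FPKM beside 10.6 for the transcriptome. By library that median was 140, 156, 113 and 156 FPKM in replicates 1 to 4. Of the 36 genes, 19 were lowest in replicate 1 and 14 in replicate 3, which left 3 for the other two libraries. Over all symbols with a mean of at least 10 FPKM, 48.4% were lowest in replicate 1 and 22.8% in replicate 3. With a mean of at least 1 FPKM, 37.0%, 10.7%, 25.6% and 26.7% of symbols were lowest in replicates 1 to 4. The shares highest there were 35.4%, 10.2%, 28.1% and 26.3%. Counts of this kind for the lists below stand beside these shares.

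**Figure D1:**
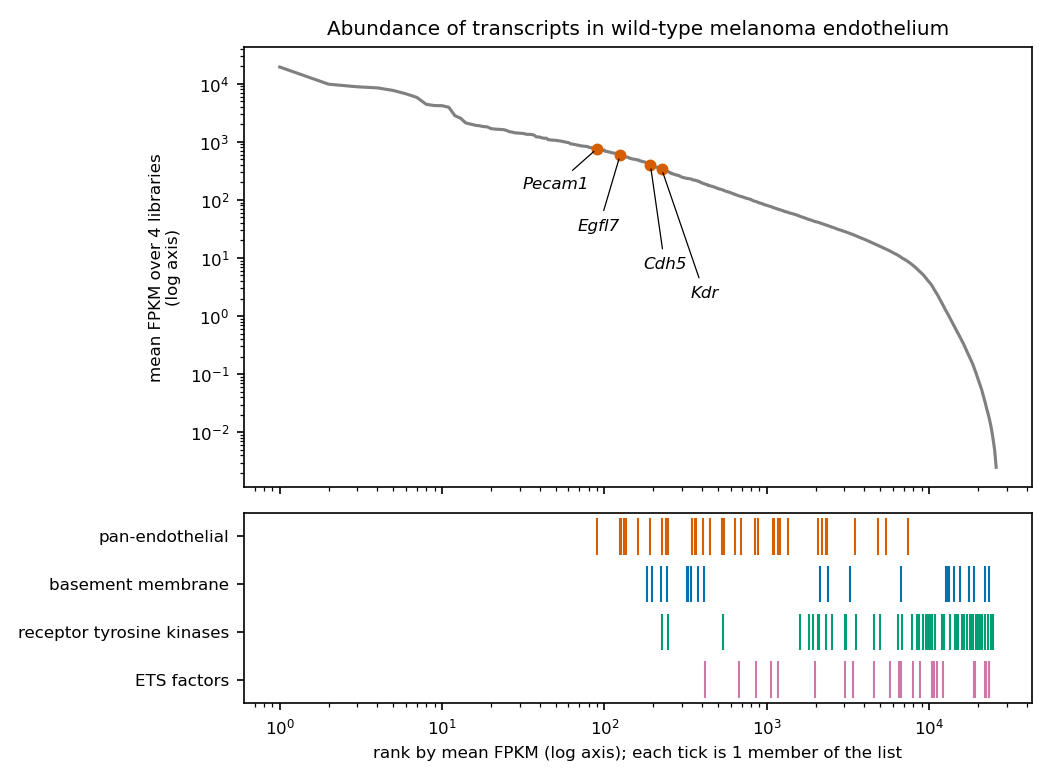
Mean FPKM over the 4 wild-type libraries against rank by mean, both on log axes, with the ranks of the members of 4 gene lists as ticks in the lower panel. The 4 endothelial markers sit between ranks 90 and 225. Apart from Kdr itself, receptor tyrosine kinases and ETS factors spread widely over the ranks below these, with Ets1 first of its list at rank 414.

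The regions just before the start of some of these genes are shown because the members were abundant together and ETS factors, which bind sites built around GGAA, were among the abundant transcription factors. RefSeq promoter windows on GRCm38.p6 held 19 of the 36 genes. Each line below gives the 250 bases before the start, 5′ to 3′ on the gene's own strand, with GGAAG or its reverse complement CTTCC in capitals.
Emcn, endomucin, chr3:137340828-137341077, plus strand: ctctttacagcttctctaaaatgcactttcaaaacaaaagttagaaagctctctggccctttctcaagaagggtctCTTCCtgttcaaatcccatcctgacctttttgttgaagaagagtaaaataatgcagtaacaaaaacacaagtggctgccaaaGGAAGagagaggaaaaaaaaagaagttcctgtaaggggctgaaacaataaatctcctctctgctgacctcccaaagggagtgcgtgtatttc
Cd34, chr1:194938571-194938820, plus strand: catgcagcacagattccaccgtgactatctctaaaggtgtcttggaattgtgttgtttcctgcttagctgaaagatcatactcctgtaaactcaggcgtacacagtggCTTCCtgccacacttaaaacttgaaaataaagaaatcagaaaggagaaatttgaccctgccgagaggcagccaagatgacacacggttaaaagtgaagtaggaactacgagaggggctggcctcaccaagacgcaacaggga
Kdr, chr5:75978456-75978705, minus strand: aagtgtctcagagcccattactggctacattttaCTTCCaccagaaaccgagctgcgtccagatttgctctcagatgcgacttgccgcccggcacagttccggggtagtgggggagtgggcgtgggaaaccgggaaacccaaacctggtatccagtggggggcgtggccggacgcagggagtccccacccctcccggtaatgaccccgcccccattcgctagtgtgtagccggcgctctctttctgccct
Flt1, VEGF receptor 1, chr5:147726012-147726261, minus strand: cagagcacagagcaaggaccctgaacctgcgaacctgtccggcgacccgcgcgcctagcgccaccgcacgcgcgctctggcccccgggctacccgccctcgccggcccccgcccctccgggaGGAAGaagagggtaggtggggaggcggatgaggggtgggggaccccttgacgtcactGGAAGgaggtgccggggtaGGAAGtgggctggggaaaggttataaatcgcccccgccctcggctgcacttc
Tie1, chr4:118489850-118490099, minus strand: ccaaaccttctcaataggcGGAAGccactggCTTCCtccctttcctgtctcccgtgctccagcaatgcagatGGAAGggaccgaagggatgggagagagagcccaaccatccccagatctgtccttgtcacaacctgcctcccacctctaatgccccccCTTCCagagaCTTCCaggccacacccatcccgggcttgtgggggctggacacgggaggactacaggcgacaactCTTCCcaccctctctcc
The core stood at 1 place in the Kdr and Cd34 windows, at 2 in Emcn, at 3 in Flt1 and at 6 in Tie1. The printed windows are examples, and Tie1 had the most matches of the windows counted in this way. Among those not printed, Adgrl4, Eng, Robo4 and Myct1 had 2 matches each, Calcrl and Rasip1 had 1 and Cldn5 had 0. On either strand, GGAAG was found in 20 of the 25 windows of the 19 matched genes, some of which have more than 1 start. This was 80% of them, beside 64.1% of all 32851 windows of the same length. The promoter box spelled TATAAA was in 12% of the pan-endothelial windows and 12.4% of all. The core ACAAAG, which SOX factors can bind, was in 16% and 16.5%. Matches of different motifs could share bases and were counted separately. The median GC content was 54% beside 52.4% for all windows. A match describes the letters in a window and shows no binding.

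Emcn, an apical glycoprotein of veins and capillaries, had 369, 677, 521 and 664 FPKM in replicates 1 to 4. Cd34, a sialomucin on vessel lining and blood progenitors, had 357, 652, 480.3 and 698 FPKM. In both genes replicate 1 was lowest and replicates 2 and 4 were highest. Cd93, a receptor-like protein active in adhesion and sprouting, followed the same order, with 448, 690.4, 459.5 and 722 FPKM. Plvap, which builds the diaphragms of caveolae and fenestrae and is a known mark of leaky vessels, had 401, 483, 554 and 499 FPKM and was highest in replicate 3. Eng, a co-receptor for BMP9 and TGF-beta, had 219, 177, 206 and 166 FPKM, so replicate 1 was its highest library. The spread of a gene is given here as the SD over libraries of log2(FPKM + 1). It was largest in the list for Myct1, at 0.67, with 36.6, 91.6, 62.8 and 104 FPKM, and Vwf, at 0.65, with 17.1, 14, 26.6 and 8.33 FPKM. Vwf, von Willebrand factor, is a large clotting glycoprotein stored by venous and arterial endothelium, and it was among the lowest of the list. Ptprb, the phosphatase that acts on Tie2 and VE-cadherin, was the most even, at 0.07, with 96.4, 85.8, 92.4 and 87.6 FPKM.

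**Figure D2:**
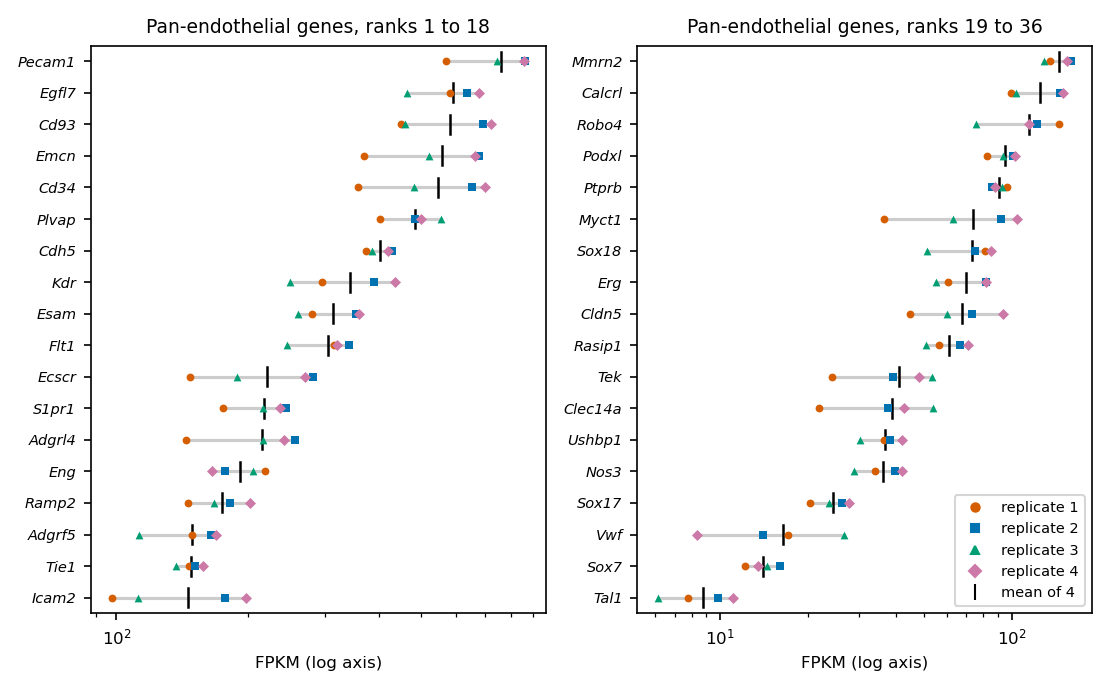
FPKM of the 36 pan-endothelial genes in each of the 4 wild-type libraries, on log axes, in order of the mean, which a black bar marks. Replicates 1 and 3 lie at the low end for most genes. Vwf and Eng are among those that run against that order, with 3 of the 36 genes highest in replicate 1 and 4 in replicate 3.

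Junction genes were led by adherens components. Besides Pecam1 and Cdh5, Ctnnb1, the beta-catenin gene, had 465, 534, 444 and 582 FPKM, a mean of 506 ± 63.4, and stood above Cdh5 in all 4 libraries. Esam, an adhesion molecule of tight junctions, had 280.0, 354, 261 and 359.9 FPKM and was below Cdh5 in all 4. The gap junction gene Gja1, for connexin 43, had a mean of 272 ± 73.1 FPKM. The arterial connexins Gja4 and Gja5 were far lower, at 19 and 18.2 FPKM. Cldn5, the main claudin of endothelium, had 44.7, 73.1, 60.3 and 93.1 FPKM, with replicate 4 at more than 2 times replicate 1. Ocln, the occludin gene of tight epithelia and the blood-brain barrier, had 0, 0.08, 0.05 and 0.04 FPKM and was near 0 in each library. Of 29 junction genes, 6 had a mean of at least 100 FPKM and 5 were below 1 FPKM.

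Caveolar genes were abundant as a set. Cav1, the coat protein of caveolae, had 434, 787, 523 and 804 FPKM and Cav2 had 109.8, 196, 128 and 210.1 FPKM. Their ratio within a library was 3.97 ± 0.11 (SD, n = 4), with a range of 3.83 to 4.09, although the highest library of each gene was 1.85 times the lowest for Cav1 and 1.91 times for Cav2. Ptrf, which encodes the adaptor cavin-1, had a mean of 172 ± 24 FPKM, Sdpr, for cavin-2, 177 ± 42.3, and Prkcdbp, for cavin-3, 192 ± 45.6. The muscle forms Cav3 and Murc had means of 0.0075 and 0.0225 FPKM. Plvap was above Cav1 only in replicate 3.

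Genes of tip cells and tumour vessels were as abundant as the pan-endothelial set, with a median of 141 FPKM and 13 of 20 genes at 100 FPKM or more. One of these was Col4a1, which was listed at 1727, 0, 0 and 0 FPKM, and without it 12 of 19 genes reached 100 FPKM and the median was 131 FPKM. Igfbp3, a carrier of insulin-like growth factors, had 2059, 3356, 2804 and 3015 FPKM in replicates 1 to 4. At 2808 ± 549 FPKM it was the most abundant listed gene of any endothelial group, at rank 12. Esm1, endocan, a proteoglycan of VEGF-stimulated tip cells, had 576, 1157, 392 and 967 FPKM. Apln, the apelin peptide gene, had 332, 632, 222 and 575 FPKM and Angpt2, the Tie2 antagonist angiopoietin-2, 205, 387, 163 and 348 FPKM. These 3 genes shared an order: replicate 2 was highest, replicate 4 next and replicate 3 lowest. Mcam, an adhesion molecule also borne by pericytes, had 413, 706, 376 and 663 FPKM. Cxcr4, the CXCL12 receptor, was more even, at 173, 220.0, 169.7 and 226 FPKM, and Dll4 had 89.8, 94.6, 63.9 and 99.5 FPKM. Of the 20 genes, 14 were lowest in replicate 3, beside 25.6% of all symbols with a mean of at least 1 FPKM. The mean over the list of log2(FPKM + 1) was 7.15, 7.18, 6.47 and 7.17 in replicates 1 to 4, and 6.96, 7.56, 6.81 and 7.54 without Col4a1. Replicates 1 and 3 were then both below the other two. Leaving out this gene was chosen after its values were seen.

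Capillary genes included the most abundant lipid-handling transcripts. Fabp4, a fatty acid-binding protein of capillary endothelium and fat cells, had 1174, 1651, 1074 and 1675 FPKM. The fat cell genes Adipoq, Plin1 and Lep had means of 0.0175, 0.0125 and 0.0025 FPKM. Gpihbp1, which carries lipoprotein lipase across capillary endothelium, had 504, 984, 801 and 1054 FPKM and was below Fabp4 in all 4 libraries. Cd36, a fatty acid transporter, had 312, 308, 396 and 394 FPKM and differed little between libraries. Fabp5 had a mean of 199 ± 53.2 FPKM, and the ratio of Fabp4 to Fabp5 was 7.42 ± 2.37. Car4 and Mfsd2a, marks of lung and brain capillaries, were near 0, at 0.795 and 0.175 FPKM.

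Arterial genes lay in a middle range, with a median of 36.2 FPKM over 20 genes. Nrp1, a co-receptor for VEGF and semaphorins, led them with 139.8, 234, 178 and 253 FPKM. Efnb2, the arterial ephrin ligand, had 37.6, 51.6, 59.3 and 47.7 FPKM, and its venous receptor Ephb4 had 33.9, 33.7, 40.1 and 39.6 FPKM. Their ratio was 1.33 ± 0.206, with Efnb2 higher in all 4 libraries. Bmx and Hey2, marks of mature arteries, had means of 0.642 and 0.615 FPKM. Mgp, an inhibitor of calcification, varied most in the list, with 10.3, 74.5, 22.3 and 125 FPKM. Its mean was 57.9 FPKM and 35.7 without replicate 4.

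Venous genes were lower, with a median of 10.8 FPKM over 14 genes. Ctla2a, a cysteine protease inhibitor, was the exception at 518 ± 187 FPKM. Nr2f2, the factor that sets venous identity, had 6.36, 5.64, 6.84 and 6.37 FPKM. The postcapillary adhesion genes Sele, Selp and Ackr1 had means of 8.54, 5.5 and 2.67 FPKM, which were 2.5, 2.56 and 1.48 FPKM without replicate 3. Of the 14 venous genes, 12 were highest in replicate 3, the library with the most macrophage transcripts. Over all symbols with a mean of at least 1 FPKM, 28.1% were highest there.

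Prox1, the factor that sets lymphatic identity, was near 0 in each library, with 0.44, 0.1, 0.19 and 0.09 FPKM. Ccl21a, a lymphatic chemokine, had 0.11, 0.07, 0.19 and 1.26 FPKM. Flt4, the VEGF-C receptor, nevertheless had 53.2, 50.2, 35.2 and 46 FPKM, and Itga9 and Nrp2 had means of 70.9 ± 5.48 and 58.3 ± 4.91 FPKM. Lyve1, a hyaluronan receptor of lymphatics and of some macrophages, had 3.47, 6.16, 85.8 and 1.94 FPKM, so 1 library held nearly all of it. The median of the lymphatic list was 12.6 FPKM and 3.92 without replicate 3.

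Among genes of coagulation and fibrinolysis, those of the plasminogen system were the most abundant. Anxa2 and S100a10, which together form a plasminogen receptor at the cell surface, had means of 748 ± 151 and 400.0 ± 154 FPKM. Plau, urokinase, had 70.6, 177, 218 and 151 FPKM and its receptor Plaur had 55.1, 77.9, 117 and 71.6 FPKM. The protein C receptor Procr, the tissue factor inhibitor Tfpi and thrombomodulin, Thbd, had means of 78.3 ± 24.1, 61.1 ± 11.8 and 41.5 ± 12.5 FPKM. Tissue factor, F3, had 6.36, 2.87, 4.82 and 3.36 FPKM. Among vasoactive genes, the endothelin receptor Ednrb led with 206, 383, 377 and 423 FPKM, and Ednra, the form of smooth muscle, had 0.28, 1.19, 0.32 and 1.78 FPKM. Nos3, endothelial nitric oxide synthase, had 34, 39.7, 28.9 and 42.2 FPKM. Ptgs2, cyclooxygenase-2, had 1.21, 11.7, 143 and 3.8 FPKM, and its mean of 40 was 5.57 without replicate 3.

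Among 58 receptor tyrosine kinases, 56 were measured and 26 had a mean under 1 FPKM. Only Kdr, Flt1 and Tie1 passed a mean of 100 FPKM. Flt1, which binds VEGF-A without strong signalling, had 315, 341, 246 and 321 FPKM, a mean of 306 ± 41.7. The ratio of Kdr to Flt1 was 1.11 ± 0.181, and Kdr was the higher in 3 of 4 libraries with overlapping ranges, so these neighbours did not differ beyond their spread. Kdr was 7.46 ± 1.6 times Flt4. Tie1, an orphan partner of Tie2, had 147, 152, 137 and 158 FPKM, with a spread of 0.09. Tek, which encodes Tie2, had 24.3, 39.3, 53.3 and 48.2 FPKM and was lowest in replicate 1. Tie1 exceeded Tek by a factor of 3.94 ± 1.5, and the Tie2 ligand Angpt2 exceeded Tek by 7.14 ± 2.92. Angpt1, the agonist ligand made by pericytes, had 1.2, 2.04, 0.6 and 1.19 FPKM.

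Other kinases differed more between libraries. Met, the receptor of hepatocyte growth factor, had 138, 29.7, 18.7 and 21.1 FPKM, and its mean of 51.9 became 23.2 without replicate 1, the library richest in melanoma transcripts. Csf1r, the receptor of macrophage colony-stimulating factor, had 4.21, 8.7, 123 and 0.53 FPKM, with nearly all of it in replicate 3. Epha2 and Ephb4 had means of 40.5 ± 12.5 and 36.9 ± 3.5 FPKM, and Kit had 28.1 ± 6.38. Fgfr1 led its family at 17.7 ± 2.51 FPKM, with Fgfr3 at 2.72, Fgfr2 at 0.33 and Fgfr4 at 0.085. Egfr and Pdgfra had means of 0.647 and 0.922 FPKM. The median over the 56 kinases was 2.21 FPKM, and 1.14 without replicate 1. In that library 16 of the 30 kinases with a mean of at least 1 FPKM were highest, beside 35.4% of all symbols with such a mean.

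In the TGF-beta and BMP family, Eng was followed by Acvrl1, the endothelial type I receptor ALK1, with 49.9, 65.2, 66.9 and 62.4 FPKM. Tgfbr2, the type II receptor, had 48.2, 53.5, 66 and 65.6 FPKM and overlapped Acvrl1. The type I receptor Tgfbr1, or ALK5, had 17.8, 14, 20.9 and 12.3 FPKM, and the type II BMP receptor Bmpr2 had 41 ± 6.56 FPKM. Bmpr1b and Acvr1c had means of 0.24 and 0.01 FPKM.

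Dll4 led the Notch ligands and Notch4 the receptors. Dll4 had a mean of 86.9 ± 15.9 FPKM, and the Jagged ligands Jag1 and Jag2 had 27 ± 5.79 and 23.5 ± 3.34 FPKM. Dll4 exceeded Jag1 by 3.35 ± 1.05 times. Notch4, the receptor largely restricted to endothelium, had 95.5, 81, 61.3 and 76.5 FPKM, and Notch1 had 56.6, 43.4, 35.5 and 38.6 FPKM. Their ratio was 1.81 ± 0.134, with a range of 1.69 to 1.98. Notch3, the receptor of mural cells, had 2.57, 3.19, 0.85 and 4.98 FPKM, and Dll3 had a mean of 0.0575. Notch2 had 10.3, 2.89, 15.5 and 2.27 FPKM and was highest in replicate 3. The Notch target genes Hes1 and Hey1 had 33.1, 87.1, 37.8 and 84.1 FPKM and 38.2, 45.1, 37.5 and 48 FPKM.

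Guidance receptors were led by Nrp1, then Plxnd1, an endothelial semaphorin 3E receptor, with 189, 168, 129 and 163 FPKM. Robo4, an endothelial Robo protein, had 145, 122, 75.3 and 115 FPKM, and Robo1 and Robo2 had means of 7.16 and 0.11. Unc5b, a netrin receptor of tip cells and arteries, had 38.5, 55.8, 30.6 and 61.4 FPKM. Plxna1 and Plxnb1 were highest in replicate 1, with 57.6, 11.8, 18.5 and 7.82 FPKM and 27.7, 3.55, 2.8 and 1.54 FPKM. The median of the 20 measured receptors was 7.55 FPKM and 4.45 without replicate 1. Among 49 measured G protein-coupled receptors, 8 had a mean of at least 100 FPKM. After Ednrb came S1pr1, the sphingosine 1-phosphate receptor that steadies junctions, with 176, 244, 216 and 237 FPKM. Adgrl4, an adhesion receptor induced in sprouting vessels, had 144, 257, 216 and 243 FPKM and did not differ from S1pr1 beyond the spread. Calcrl, with its partner Ramp2 the receptor of adrenomedullin, had a mean of 125 ± 27 FPKM, Ramp2 175 ± 24 and the peptide gene Adm 77.4 ± 35.2. Aplnr, the apelin receptor, had 61.7, 107, 140.2 and 129 FPKM, and Apln exceeded it by 4.32 ± 1.92 times. The thrombin receptor F2r had 104 ± 19.5 FPKM, and Fzd4, the frizzled receptor of retinal vessels, 54.5 ± 10.8.

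Integrins, the receptors of the matrix, were led by laminin-binding chains. Itgb1, the common beta 1 chain, had 382, 638, 438 and 623 FPKM. Itga6, the chain that with beta 1 binds laminin, had 293, 414, 319 and 432 FPKM and was far above every other alpha chain. It exceeded Itga5, of the fibronectin receptor, by 8.99 ± 2.3 times. The collagen-binding chains Itga1 and Itga2 had means of 53.6 ± 16.4 and 31.2 ± 1.89 FPKM. Itgav and Itgb3, which form the vitronectin receptor of angiogenic endothelium, had 51, 36.8, 34 and 35 FPKM and 80.2, 70.3, 35.3 and 57.5 FPKM. Itgb4, the other partner of Itga6, had 0.97, 1.11, 3.72 and 1.12 FPKM. Itgam, the gene of CD11b, on which cells were depleted, had 2.27, 5.85, 109 and 0.2 FPKM, and its leukocyte partner Itgb2 had 12.5, 8.79, 90.9 and 4.09 FPKM. The median of the 26 integrins was 9.05 FPKM and 4.63 without replicate 3.

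Of the adhesion genes that slow leukocytes, Icam2, a constitutive form, had 97.5, 177, 112 and 198 FPKM. The inducible forms Icam1 and Vcam1 had 16.6, 23.1, 48.9 and 14.5 FPKM and 11.2, 7.26, 16.6 and 4.1 FPKM, both highest in replicate 3. Glycam1, Madcam1 and Chst4, genes of high endothelial venules, had means of 0.113, 0.11 and 0.005 FPKM. Among scavenger receptors, Stab1 had 191, 304, 592 and 259.7 FPKM, and Stab2, a mark of liver sinusoids, had 0.28, 0.4, 0.17 and 0.17 FPKM. Mrc1, the mannose receptor of macrophages and sinusoids, had 13.8, 35, 363 and 1.16 FPKM and a mean of 103, or 16.6 without replicate 3. Scarb1, the HDL receptor, was even, at 101, 104, 78.6 and 111 FPKM.

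**Figure D3:**
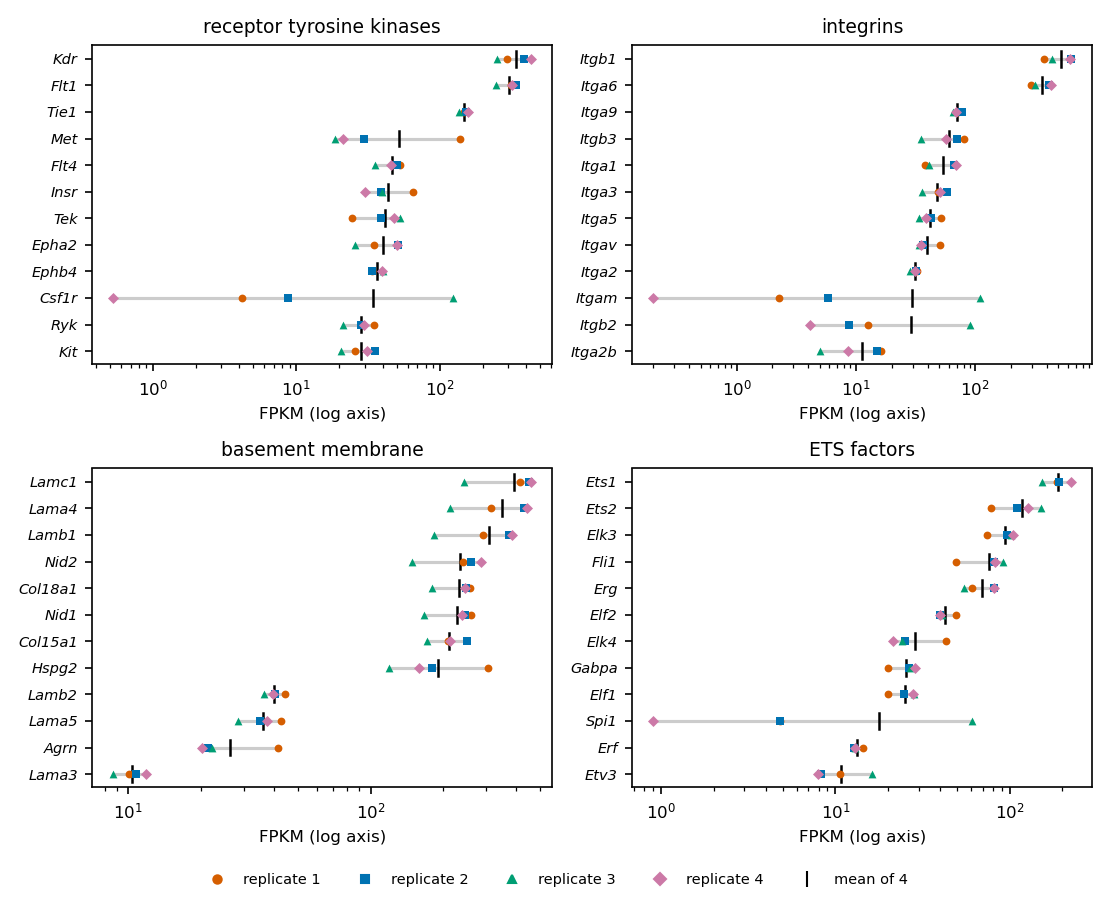
FPKM in each of the 4 wild-type libraries for the 12 most abundant receptor tyrosine kinases, integrins, basement membrane genes and ETS factors with no value of 0, on log axes, with a black bar at the mean. Csf1r, Itgam, Itgb2 and Spi1 have their high value in replicate 3, Met has it in replicate 1, and 8 basement membrane genes form a group of means from 190.3 to 393 FPKM.

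Of the 23 basement membrane genes, 8 had a mean of at least 100 FPKM apart from Col4a1 and Col4a2, and 7 were below 1 FPKM. The laminin chains of endothelium had means of 349 ± 107 FPKM for Lama4, 308 ± 93 for Lamb1 and 393 ± 102 for Lamc1, which together encode a laminin of the vessel wall. Lama4 had 314, 428, 214 and 441 FPKM in replicates 1 to 4. Lama5, the other endothelial alpha chain, had 42.5, 35.1, 28.3 and 37.3 FPKM, and Lama4 exceeded it by 9.73 ± 2.62 times. Lamb3, an epithelial chain, was low, with a mean of 0.69 FPKM. Nid1 and Nid2, which join laminin to collagen IV, had 259, 246, 167 and 238 FPKM and 241, 259, 149 and 287 FPKM, with a ratio of Nid2 to Nid1 of 1.02 ± 0.142. Hspg2, perlecan, had 304, 179, 119 and 159 FPKM. Col18a1 and Col15a1, the multiplexin collagens, had means of 232 ± 35.3 and 211 ± 32 FPKM. In Lama4, Lamb1, Lamc1, Lama5, both nidogens, Hspg2 and both multiplexins, replicate 3 was the lowest library.

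Col4a1 and Col4a2, the main collagen IV chains, were listed at 1727, 0, 0 and 0 FPKM and 913, 0, 0 and 0 FPKM. Both were thus high in replicate 1 and at an exact 0 in the other libraries. The other chains Col4a3 to Col4a6 had means between 0.0325 and 0.998 FPKM. An exact 0 in such a file can be a failed estimate, and the mean level of these genes rests on replicate 1 alone. With them, the summed FPKM of the 23 basement membrane genes was 5075, 2547, 1524 and 2542 in replicates 1 to 4. Without them it was 2435, 2547, 1524 and 2542. The median of the list was 35.8 FPKM, 10.5 without replicate 1, and 26.3 without these 2 genes, a choice made after their values were seen.

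Matricellular genes held the top ranks of the matrix. Sparc, a collagen-binding glycoprotein, had 1205, 2017, 1918 and 2153 FPKM at rank 18, and its relative Sparcl1 had 399.9, 682, 519 and 709 FPKM. Igfbp7, a collagen IV-binding protein of tumour vessels, had 945, 1834, 1731 and 1939 FPKM at rank 24. Igfbp3 exceeded Igfbp7 in all 4 libraries, by 1.8 ± 0.281 times. The remaining binding proteins ran from Igfbp4, at 139 ± 13.5 FPKM, to Igfbp2, at 0.0075. Thbs1, thrombospondin 1, had 483, 486, 595 and 309.6 FPKM and Thbs2 a mean of 3.04. The YAP target genes Ctgf and Cyr61 had 213, 285, 78.7 and 277 FPKM and 119, 146, 82.5 and 115 FPKM. Spp1, osteopontin, had 17.6, 84.8, 635 and 18.9 FPKM, nearly all in replicate 3.

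Interstitial matrix genes were lower and less even. Fn1, fibronectin, had 132, 118, 109.6 and 83.9 FPKM. The fibrillar collagens Col3a1, Col1a1 and Col1a2 had 207, 96.1, 47.6 and 151 FPKM, 123, 40.4, 21.2 and 44.5 FPKM and 72.5, 34.9, 18.6 and 57.1 FPKM. Replicate 3 was lowest and replicate 1 highest in each. The mean of Col1a1 was 57.4 FPKM and 35.4 without replicate 1. Dcn and Lum, small proteoglycans of fibroblasts, had means of 3.1 and 0.585 FPKM, and that of Dcn was 1.53 without replicate 4. The median spread of the 18 interstitial genes with a mean of at least 1 FPKM was 0.86, beside 0.44 for basement membrane and 0.27 for pan-endothelial genes.

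Collagen processing was led by Serpinh1, the collagen chaperone HSP47, with 415, 579, 389 and 615 FPKM. P4hb, a subunit of prolyl 4-hydroxylase, had 358 ± 54.5 FPKM, Plod1, a lysyl hydroxylase, 122 ± 8.7, and Pxdn, the peroxidase that crosslinks collagen IV, 119 ± 23.2. The lysyl oxidase genes were low, with means of 3.45 FPKM for Lox, 3.56 for Loxl2 and 0.748 for Loxl1. The mean of Lox was 1.8 FPKM without replicate 4. The list median was 27.3 FPKM and 18 without replicate 1. Among proteases, Adamts1 had 122, 262, 173 and 295 FPKM, Mmp14, the membrane-bound metalloproteinase of sprouts, 114, 143, 97.8 and 138 FPKM, and Adam12 149.9, 110.3, 53.2 and 107 FPKM. The gelatinases Mmp2 and Mmp9 had means of 3.85 and 1.24 FPKM, and that of Mmp9 was 0.317 without replicate 3. Mmp12, macrophage elastase, had 15.1, 22.6, 287 and 0.59 FPKM, and its mean of 81.3 was 12.7 without replicate 3. The inhibitors Timp3, Timp2 and Timp1 had means of 58 ± 7.87, 40.3 ± 56 and 24.4 ± 12.2 FPKM. Timp2 had 17.3, 14.1, 124 and 5.88 FPKM in replicates 1 to 4, and its mean was 12.4 without replicate 3. The list median was 6.26 FPKM and 3.80 without replicate 3.

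Ets1 was the most abundant of 26 ETS factors, with 186, 191, 153 and 225 FPKM. Ets2 had 78.6, 109.7, 152 and 128 FPKM and was below Ets1 in all 4 libraries. Elk3 had 94.2 ± 14.1 FPKM. Fli1 and Erg, factors that maintain endothelial identity, had 49.5, 81.5, 91.9 and 82.3 FPKM and 60.5, 81.5, 54.9 and 81.4 FPKM. Their ratio, Erg to Fli1, was 0.952 ± 0.259, and each was the higher in 2 libraries. Etv2, which starts the endothelial programme in the embryo, had 0, 0.07, 0 and 0 FPKM. Spi1, the myeloid factor PU.1, had 4.84, 4.83, 60.9 and 0.9 FPKM and followed the macrophage genes.

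Sox18 led the 16 measured SOX factors with 80.8, 75, 51.3 and 84.8 FPKM, and Sox17 and Sox7, its partners in the same subgroup, had 20.3, 26.3, 23.7 and 27.8 FPKM and 12.2, 16.1, 14.5 and 13.5 FPKM. Sox18 exceeded Sox17 by 3.01 ± 0.746 times. Sox10, the neural crest and melanocyte factor, had 17.2, 1.63, 1.6 and 0.75 FPKM, and Sox5 and Sox6 were likewise highest in replicate 1, with 10.2, 1.87, 1.21 and 1.23 FPKM and 7.09, 1.46, 1.2 and 0.64 FPKM. The list median was 3.11 FPKM and 1.21 without replicate 1. Sox2 was listed at 0 in each library.

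Of the GATA, TAL and LMO group, Tcf4, an E protein, had 147, 167, 131 and 150.2 FPKM. Id1 and Id3, targets of BMP signalling, had 82.1, 85.9, 51.8 and 103 FPKM and 102, 109, 68.2 and 116 FPKM. Lmo2 had 13.1, 29.3, 45.8 and 31.2 FPKM and its partner Tal1 7.81, 9.85, 6.13 and 11.1 FPKM. Gata2, the main GATA factor of endothelium, had 5.27, 6.17, 4.65 and 6.71 FPKM, and Gata1, Gata3, Gata4, Gata5 and Gata6 each had a mean of 0.260 FPKM or less. Klf6 led the KLF factors at 81.8, 115, 262 and 91.8 FPKM. Klf2 and Klf4, which respond to blood flow, had 16.6, 13.8, 32.5 and 17.4 FPKM and 15, 17, 32.6 and 14.1 FPKM, without a steady order between them. Among forkhead factors Foxo1, which holds endothelium quiescent, had 6.35, 5.28, 4.66 and 4.57 FPKM, Foxp1 23.2, 13.7, 26.9 and 12.2 FPKM and Foxm1, a factor of dividing cells, 21.7, 9.28, 7.9 and 10.7 FPKM. Foxc2 and Foxf2 had means of 0.647 and 0.0075 FPKM.

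Wwtr1, which encodes TAZ, a relative of YAP, was the most abundant of 45 further endothelial and hypoxia factors, with 99.6, 150.1, 111 and 159 FPKM. Yap1 had a mean of 18.1 ± 3.75 FPKM. Hif1a had 90.6, 124, 122 and 124 FPKM and Epas1, which encodes HIF-2 alpha, 69.3, 58.1, 53.9 and 53.8 FPKM. Hif1a was the higher in all 4 libraries, by 2.0 ± 0.469 times. Mef2c, Zeb1 and Bcl6b had means of 66.4 ± 13.6, 63.1 ± 9.23 and 48.7 ± 15.9 FPKM. Twist1 and Heyl had means of 0.48 and 0.55.

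Immediate early genes were the transcription factor group that varied most, with a median spread of 0.73 beside 0.30 for all symbols with a mean of at least 1 FPKM. Of the 19 genes with a mean of at least 1 FPKM, 16 were highest in replicate 3 and 12 lowest in replicate 1. The shares of all symbols with such a mean were 28.1% and 37.0%. Fos had 103, 200.3, 651 and 169.7 FPKM and a mean of 281, or 158 without replicate 3. Atf3 had 22.4, 89.3, 275 and 56 FPKM, and its mean of 111 was 55.9 without that library. Junb had 84.5, 128, 282 and 122 FPKM and Jun 42.8, 56.2, 97.6 and 52.7 FPKM. The STAT, IRF and NF-kB factors differed less, with a median spread of 0.29, but 16 of the 20 with such a mean were likewise highest in replicate 3. Stat3 had 68, 50.7, 73.9 and 42.2 FPKM and Nfkb1 48.1, 48.3, 57.9 and 49.9 FPKM. The mean of Irf5 was 13.3 FPKM and 5.17 without replicate 3.

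Among secreted growth factors and guidance ligands, Apln and Angpt2 were followed by Sema3f, a repulsive semaphorin, with 244, 249.7, 189 and 251 FPKM. Pdgfb, which recruits pericytes, had 128, 144, 82.2 and 152 FPKM. Ccl2, a monocyte chemokine, had 23.9, 102, 1004 and 22.7 FPKM, and its mean of 288 was 49.4 without replicate 3. Of the VEGF family, Pgf had a mean of 29.7 ± 11.4 FPKM, Vegfc 25.4 ± 6.58, Vegfa 22.4 ± 15.6 and Vegfb 4.01 ± 1.99. Kitl, stem cell factor, had 46.3, 103, 53.9 and 103 FPKM and Cxcl12 38.4, 60.9, 22.4 and 68.7 FPKM, both highest in replicates 2 and 4. Wnt2, Wnt9b and Rspo3, angiocrine genes of lung and liver endothelium, had means of 0.105, 0.04 and 0.0275 FPKM.

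Transcripts of dividing cells were present in each library. All 22 cell cycle genes reached 1 FPKM throughout, with a median of 34.1 FPKM. Mki67 had 48.1, 37.5, 33.1 and 46.6 FPKM, Top2a 99.1, 97.3, 74.6 and 138 FPKM and Cdk1 77.1, 145, 85.6 and 204 FPKM. Replicate 4 was highest in 18 of the 22 and replicate 3 lowest in 14. The shares of all symbols with a mean of at least 1 FPKM were 26.3% and 25.6%. The most abundant genes of glycolysis included some even ones, although the list of glycolysis and hypoxia genes had a median spread of 0.33. Pkm had 693, 659.7, 707 and 606 FPKM, Gapdh 613, 634, 789.6 and 604 FPKM and Ldha 408, 441, 484 and 445 FPKM. Aldoa, the main aldolase, was less even, with 347, 426, 631 and 390.3 FPKM, and Hk2, hexokinase 2, varied widely, with 50.9, 4.98, 15 and 2.83 FPKM. The glucose transporter Slc2a1 had 43.7 ± 8.36 FPKM, and Car9, a hypoxia target gene, had 29.7, 4.97, 2.64 and 2.37 FPKM, with a mean of 9.93, or 3.33 without replicate 1. Endoplasmic reticulum chaperones had a list median of 173 FPKM, led by Hspa5, or BiP, with 525, 764, 781 and 656 FPKM. Interferon-stimulated genes had a median of 10.9 FPKM, and 21 of 24 were highest in replicate 3. Over all symbols with a mean of at least 1 FPKM, 28.1% were highest there. Ifi27l2a had 14.7, 31.4, 440.5 and 9.45 FPKM, with a mean of 124, or 18.5 without replicate 3, while Bst2 had 129, 140.5, 161 and 144 FPKM. B2m, the light chain of MHC class I, had 876, 1320.1, 2438 and 1312 FPKM, and 13 of 16 class I pathway genes were likewise highest in replicate 3.

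The most abundant transcripts over all symbols were mostly housekeeping and small noncoding RNAs. The 100 symbols with the highest means held 33.5% ± 3.22 (SD, n = 4) of a library's summed FPKM. Cytosolic ribosomal protein genes held 10.4% to 13.8%. Eef1a1, the translation elongation factor, had 3445, 4565, 4463 and 5101 FPKM, and Tmsb4x, thymosin beta 4, which binds actin monomers, had 2151, 4748, 4844 and 5021 FPKM. Actb had 2612, 4265, 5364 and 4438 FPKM and Vim, the intermediate filament protein vimentin, 1448, 2120.3, 2333 and 2129 FPKM. Igfbp3, Sparc and Igfbp7 were the only listed endothelial or matrix genes among the 25 most abundant symbols. Several of the top symbols held exact zeros: Rn7sk, the 7SK RNA, was listed at 5734, 39330.0, 32157 and 0 FPKM, mt-Rnr2, a mitochondrial ribosomal RNA, at 26614, 6174, 0 and 6304 and mt-Co1, a cytochrome oxidase subunit, at 15671, 0, 0 and 0. In all, 175 symbols were at 0 in at least 1 library and at 10 FPKM or more in another, of which 78 were small nucleolar or Cajal body RNAs and 13 were protein coding. Replicate 1 was at 0 in 152 of the 175, with or without another library, and was the only library at 0 in 81.

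Markers of other cells were measured beside the endothelial genes. Melanoma genes were highest in replicate 1 in each of the 14 listed genes with a mean of at least 1 FPKM, and replicate 4 was lowest in all 14. Dct and Tyrp1, pigment enzymes, had 419, 69, 106 and 31.5 FPKM and 337, 59.9, 63.6 and 26.8 FPKM. Without replicate 1, the means of Dct and Tyrp1 went from 156 and 122 to 68.9 and 50.1 FPKM. The summed FPKM of the 15 measured melanoma genes was 1315, 233, 371 and 102 in replicates 1 to 4. Melanoma genes were thus present in all of these sorted samples, and their part in any level given above was not tested.

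All 18 macrophage and monocyte genes were highest in replicate 3 and lowest in replicate 4. Lyz2, lysozyme, had 107, 292, 2944 and 21.4 FPKM, Apoe 159.7, 164, 1343 and 26 FPKM and C1qa, a complement chain of tissue macrophages, 21.1, 47.8, 588 and 1.11 FPKM. Without replicate 3, the means were 140.2 FPKM for Lyz2 instead of 841, and 117 for Apoe instead of 423. The summed FPKM of the list was 477, 886, 9062 and 93.7 in replicates 1 to 4. The neutrophil genes S100a8 and S100a9 had 1.01, 12.4, 436 and 0.61 FPKM and 2.09, 14.7, 539.9 and 0.78 FPKM, while the granule genes Mpo and Elane, of immature neutrophils, had means of 0.0225 and 0.0125. In replicate 3 the pan-endothelial median was 113 FPKM, the lowest of the 4, and the part of myeloid RNA in that value was not tested.

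Most mural genes followed another order. Rgs5, a pericyte gene, had 14.6, 85.8, 28 and 155 FPKM, with a mean of 70.9, or 42.8 without replicate 4, and Pdgfrb, the receptor of Pdgfb, 3.03, 7.72, 2.48 and 12.6 FPKM. Acta2, smooth muscle actin, had 16.7, 35.3, 10.2 and 49.6 FPKM. Of the 13 mural genes with a mean of at least 1 FPKM, 10 were highest in replicate 4, beside 26.3% of all symbols with such a mean. Of the 8 fibroblast genes with such a mean, 4 were highest in replicate 4 and 4 in replicate 1, among them the fibrillar collagen genes named above. Abcc9 and Kcnj8, which form a potassium channel of pericytes, had means of 45.1 ± 6.57 and 42 ± 13.8 FPKM, above Pdgfrb in each library. The platelet factor gene Pf4 had 55.5, 154, 926 and 48.7 FPKM and Ppbp, another platelet chemokine, 93.7, 134, 62 and 87.8 FPKM, while the platelet integrin Itga2b had a mean of 11.3 ± 5.34. Immunoglobulin transcripts were present, with Igkc at 93.9, 33.8, 40.9 and 70.1 FPKM and Ighm at 55.1, 27.7, 31.9 and 46.7 FPKM. T and NK cell genes had a list median of 1.48 FPKM, 0.950 without replicate 1, and red cell genes one of 1.17 FPKM.

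Epithelial markers of lung and skin were near 0. The lung source named in the labels has surfactant and club cells as its best known epithelium, and Sftpc and Scgb1a1 were at 0, 0.02, 0 and 0 FPKM and 0, 0, 0.12 and 0 FPKM. The listed genes Sftpa1, Sftpb, Sftpd and Scgb3a2 were not measured. Because CD31-positive cells were taken, epithelial genes cannot tell which tissue the endothelium came from. The summed FPKM of the 8 measured lung epithelial genes was 8.15, 6.67, 13.4 and 8.11, most of it Napsa and Hopx, at 4.49, 2.71, 8.36 and 2.99 FPKM and 1.66, 2.38, 3.38 and 3.64 FPKM. The 11 measured keratinocyte genes summed to 1.92, 0.81, 1.42 and 1.16 FPKM.

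**Figure D4:**
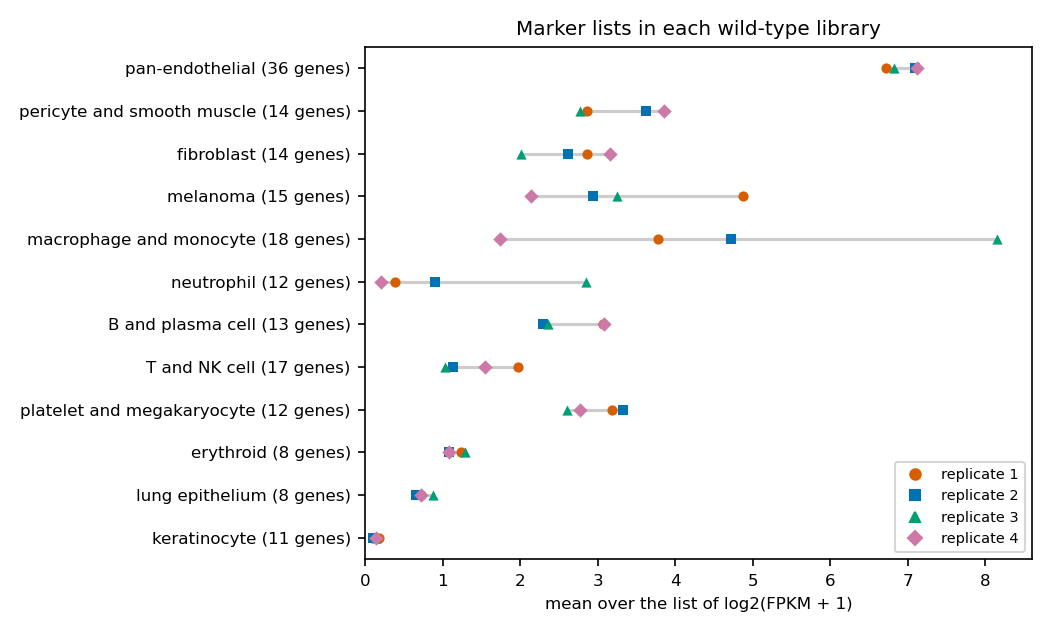
Mean over each marker list of log2(FPKM + 1) in each of the 4 wild-type libraries. Pan-endothelial genes lie between 6.71 and 7.12, while macrophage and monocyte genes run from 1.73 in replicate 4 to 8.15 in replicate 3 and melanoma genes from 2.14 to 4.87.

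On the scale of log2(FPKM + 1), the median spread was similar between levels and differed more between kinds of gene. The added 1 shrinks the spread of low values most, so dependence on level cannot be judged from the medians below. The median spread was 0.30 over the 13256 symbols, 0.34 for means from 1 to 10 FPKM, 0.27 from 10 to 100 and 0.36 at 100 FPKM or more. Without replicate 1 the overall median was 0.19. Of 6713 symbols with a mean of at least 10 FPKM and no value of 0, 43.9% stayed within 1.5-fold between their highest and lowest library and 75.6% within 2-fold. A further 209 differed by more than 10-fold. Of the 50 most variable protein-coding genes of that kind, 12 stand on the macrophage list. In replicate 3, 49 of the 50 were highest, beside 30.4% of all symbols with a mean of at least 10 FPKM. Ccl6, Cxcl2 and Il1b, cytokine genes of myeloid cells, are examples, with 19.6, 90.5, 1109.6 and 3.31 FPKM, 9.33, 103, 1281 and 8.44 FPKM and 11.2, 55.6, 870.4 and 3.92 FPKM. The exception was Gm10800, with 262, 1.33, 7.97 and 2.5 FPKM. The limit to protein-coding genes with no 0 was chosen after the values were seen. Without that limit, 67 of the 100 most variable symbols held a 0. Of those 100, 39 were highest in replicate 3, 35 in replicate 4, 13 in replicate 1 and 13 in replicate 2. At the other end, Uba1, the main ubiquitin-activating enzyme, had 95.8, 96.8, 95.4 and 95.7 FPKM, a spread of 0.0086. Ints4, of the Integrator complex, had 12.7, 12.7, 12.5 and 12.9 FPKM and Rps6kb1, the S6 kinase, 16.9, 17, 16.6 and 17 FPKM. Eif3a, a translation initiation factor, had 70.8, 69.6, 72.2 and 70.9 FPKM and Eed, a Polycomb subunit, 17.7, 16.9, 17.3 and 17.2 FPKM. No endothelial marker was among the 15 most even genes, although Ptprb, Tie1 and Cdh5 came to 0.07, 0.09 and 0.09.

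**Figure D5:**
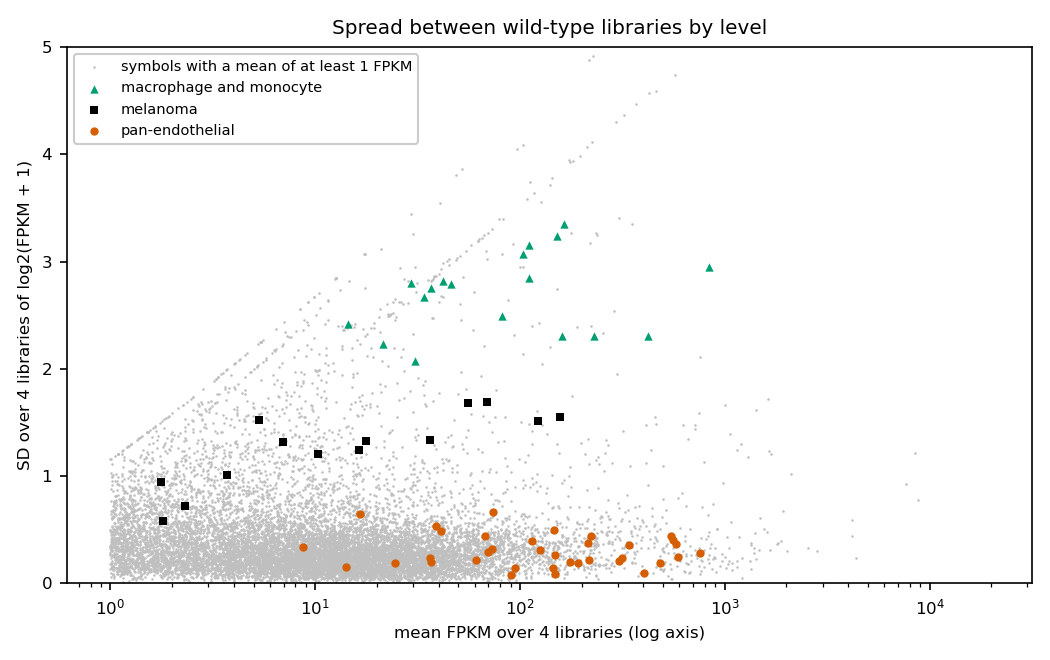
SD over the 4 wild-type libraries of log2(FPKM + 1) against mean FPKM on a log axis for 13248 symbols (8 more lie above the axis). Pan-endothelial genes lie at or under 0.67, melanoma genes from 0.58 to 1.69, which overlaps that range, and macrophage and monocyte genes above 2.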

How the data were processed

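Total RNA of CD31-positive tumour cells was sequenced after removal of ribosomal RNA with a stranded kit, per the labels' protocols. The authors deposited 1 FPKM value for each gene symbol, written with a decimal comma. The build GRCm38 and the tools TopHat2 2.1.1 and Cufflinks 2.2.1 are listed in the submitters' processing notes. Neither the annotation nor the strand setting is given in the sources used here, so reads of overlapping and antisense genes may be mixed. Depth is unknown, which leaves low values without an interval.

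The 4 wild-type files were read in Python 3.11.15 with pandas 2.3.3. For each of 28454 symbols the mean, the SD and the SD of log2(FPKM + 1) over libraries were computed. The SD step was tested on simulated data. Gene types and positions came from GENCODE vM21, which held 25987 of the symbols. Promoter windows came from RefSeq. Plots were drawn with matplotlib 3.10.9. The 6 Shb-inactivated libraries were not used here.

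The members and the 51 gene lists were chosen with earlier results of these data known, and lists may share genes. Named genes are Pecam1, Cdh5, Kdr, Egfl7, Itgam and Shb, and the 25 most abundant symbols. They include the 6 most abundant members of each endothelial, receptor, matrix, transcription factor and ligand list, and the 3 most abundant of each other list. The 15 most and 15 least variable symbols with a mean of at least 10 FPKM complete the set. Some of these are given only in counts, and other list members are given as values and were chosen after these were seen. Some named genes are not reported here. Older symbols are kept as the files give them. Alternatives changed the detection level, pseudocount, filter, scaling and ranking, and left out each library in turn.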

Additional observations from a re-analysis of the deposited data

Results flagged for a closer look

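In 5 of the values examined, 1 library lay apart from the other 3, with a gap to its neighbour above Dixon's 95% critical share of the whole range for 4 samples. The values examined were 51 list scores, 6 marker genes and 4 measures of the libraries, and chance passes this limit in about 1 of 20 groups. The same limit was also put to the 268 named genes, some of them chosen for their spread. Of these, 48 passed it, 30 with replicate 3 apart, 17 with replicate 1 and 1 with replicate 4. A list score is the mean over the list of log2(FPKM + 1).

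Replicate 3 stood apart in 3 of the 5 values. Its score for tip cell and tumour vessel genes was 6.47, against 7.15 to 7.18 in the other libraries. This rested on Col4a1, listed at 0 in all libraries but replicate 1: without that gene the scores were 6.96, 7.56, 6.81 and 7.54 in replicates 1 to 4, and replicate 3 no longer stood apart. Its score for interferon-stimulated genes was 4.59, against 3.08 to 3.30. Itgam, the gene of CD11b, was at 109 FPKM there and at 0.20 to 5.85 FPKM in the others. Replicate 1 stood apart in the other two. Its score for coagulation and fibrinolysis genes was 4.73, against 5.12 to 5.19, and its score for G protein-coupled receptors was 2.92, against 3.04 to 3.05.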

How the results depend on the processing

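No paired analysis was possible because no groups were compared. The number of symbols detected in every library was 11460 at 1 FPKM, 16228 at 0.1 FPKM and 7893 at 5 FPKM, and 11512 to 11767 with 1 library left out. The median Spearman correlation between libraries was 0.882, 0.793 over symbols with a mean of at least 10 FPKM, and 0.865 to 0.897 with 1 library left out. The median spread was 0.30, 0.18 with no filter on low values, and 0.19 to 0.35 with 1 library left out, the lowest without replicate 1. The share of the 100 most abundant symbols was 33.5%, 28.0% with protein-coding symbols alone, and 32.7% to 34.9% with 1 library left out. The pan-endothelial level was 146 FPKM, 135 to 151 with 1 library left out, and 265 as TPM, which multiplies the values of a library by 1.73 to 1.95. Leaving out 1 library moved the level of 14 of 51 lists and 43 of 268 named genes by more than 1.5 times. Taking zeros of genes with at least 10 FPKM in another library as missing, an alternative added after the values were seen, moved none of the 51 list levels by more than the spread between libraries.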

Other observations

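Genes of dendritic cells and platelets differed in which library was highest. Zbtb46, a factor of dendritic cells that endothelium also expresses, had 18.4, 14.9, 11.5 and 18.7 FPKM in replicates 1 to 4. The dendritic cell genes Xcr1 and Flt3 had means of 0.275 and 1.69 FPKM. Siglech, a gene of plasmacytoid dendritic cells, had 18.7, 4.27, 1.64 and 4.8 FPKM and was highest in replicate 1. Itgax, the gene of CD11c, had 1.84, 0.99, 7.73 and 0.36 FPKM and was highest in replicate 3 and lowest in replicate 4, like the macrophage genes. Of the platelet genes, Tubb1 had 23, 22.5, 6.9 and 13.2 FPKM and Gp9 12.1, 13.2, 4.08 and 8.85 FPKM, both lowest in replicate 3, where Pf4 was highest at 926 FPKM.

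The labels give no sex. Of 37 symbols on chromosome Y, 7 reached 1 FPKM in some library. Ddx3y had 0, 52, 52.1 and 57 FPKM in replicates 1 to 4, Eif2s3y 0, 17.8, 38.9 and 36.6 FPKM, Kdm5d 0.01, 8.64, 8.39 and 8.62 FPKM and Uty 0.18, 15.7, 14 and 15 FPKM. Xist, the noncoding RNA of the inactive X chromosome, had 0.13, 0.01, 0 and 0 FPKM.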
